A study of Mus musculus with 14 samples.

Results

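The genes described here are 50 genes of the DNA damage response and DNA repair in the mouse, followed in myeloid-biased (MPP3) and lymphoid-biased (MPP4) multipotent progenitors of young and old bone marrow. They were chosen by name from 7 pathway groups, and no measured value entered the choice, although the theme of DNA repair was taken up with earlier results of these arrays known. Of the 50 genes, 49 were measured by a probe set that carries a single gene symbol, among 19155 genes in all. The groups comprised 8 measured Fanconi anemia genes, 14 of homologous recombination, 5 of non-homologous end joining, 7 of base excision and single-strand break repair, 7 of nucleotide excision repair, 4 of mismatch repair and 4 checkpoint kinases. Fancl was not analysed here. Each measured member was represented by 1 probe set.

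The study compared young with old blood-forming cells, and 14 Affymetrix Mouse Gene ST 1.0 arrays were available, each carrying RNA from 20000 double-sorted cells of wild-type C57BL/6 bone marrow. Young mice were 8 to 10 weeks of age and old mice were 24 months. There were 3 young MPP3, 3 old MPP3, 5 young MPP4 and 3 old MPP4 arrays, called biological replicates by the study, and whether mice were pooled for an array is not given in the sources used here. Both gates took Lin-, cKit+, Sca-1+ cells. By the record of the arrays MPP3 were Flk2-, CD48+ and CD150-, and MPP4 were Flk2+, whereas the methods of the study print CD150+ for MPP3. The record ties the young arrays to an earlier data set and does not say so of the old ones, so data set and age cannot be told apart. A normalized value records rank within an array: it is the negative natural log of the share of probe sets ranked as high or higher there. Differences are given on this scale and never as folds, and each probe set is compared only with itself on other arrays. In sorted pools, fewer cells that express a gene and less RNA per cell cannot be told apart.

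Cells meet broken DNA with checkpoint kinases, which halt the cell cycle, and with repair pathways that divide the work by type of lesion. Breaks through both strands are either rejoined end to end in any phase of the cycle or repaired by homologous recombination against the sister copy, which requires DNA replication. The Fanconi anemia pathway removes crosslinks between the strands, and its loss in humans and mice depletes blood stem cells. Excision and mismatch pathways replace damaged or misplaced bases on a single strand.

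The sorted identity was visible in the values of Flt3. Flt3, which encodes Flk2, lay between 1.42 and 2.20 on the 6 MPP3 arrays and between 2.77 and 3.53 on the 8 MPP4 arrays, and Kit lay between 2.63 and 3.10 on all 14. Slamf1, the gene of CD150, was near the bottom at 0.0864 to 0.251. Array medians lay between 0.662 and 0.675. Clustered on the dimmest 33.3% of probe sets, the arrays formed 2 sets, which no label describes. Set 1 comprised the 6 old arrays together with 3 young ones (MPP3 replicate 1, MPP4 replicate 1 and MPP4 replicate 2), and set 2 comprised the remaining 5 arrays, all young. The mean of 5 neutrophil genes lay between 0.823 and 1.28 in young MPP3, between 1.34 and 2.02 in old MPP3, and between 0.435 and 0.752 on all MPP4 arrays.

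Across the 4 groups the repair genes as a whole were at similar values except in old MPP4. The mean of the 49 members was 1.32 ± 0.0392 (SD, n = 3) in young MPP3, 1.32 ± 0.0365 (SD, n = 3) in old MPP3, 1.33 ± 0.033 (SD, n = 5) in young MPP4 and 1.41 ± 0.0485 (SD, n = 3) in old MPP4. The old MPP4 arrays stood at 1.37, 1.39 and 1.46, and the highest of the other 11 arrays was young MPP3 replicate 2 at 1.37, so the ranges nearly touched. No single member passed the test in any comparison (limma, Benjamini-Hochberg adjusted p under 0.05 over all genes). By the same rule 0% of all genes were called between the ages in MPP3, 0% between the ages in MPP4, 0.131% between the populations in young mice, 0% between the populations in old mice and 0% for the difference between the age differences. The values below are therefore descriptions of size and spread.

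**Figure D1:**
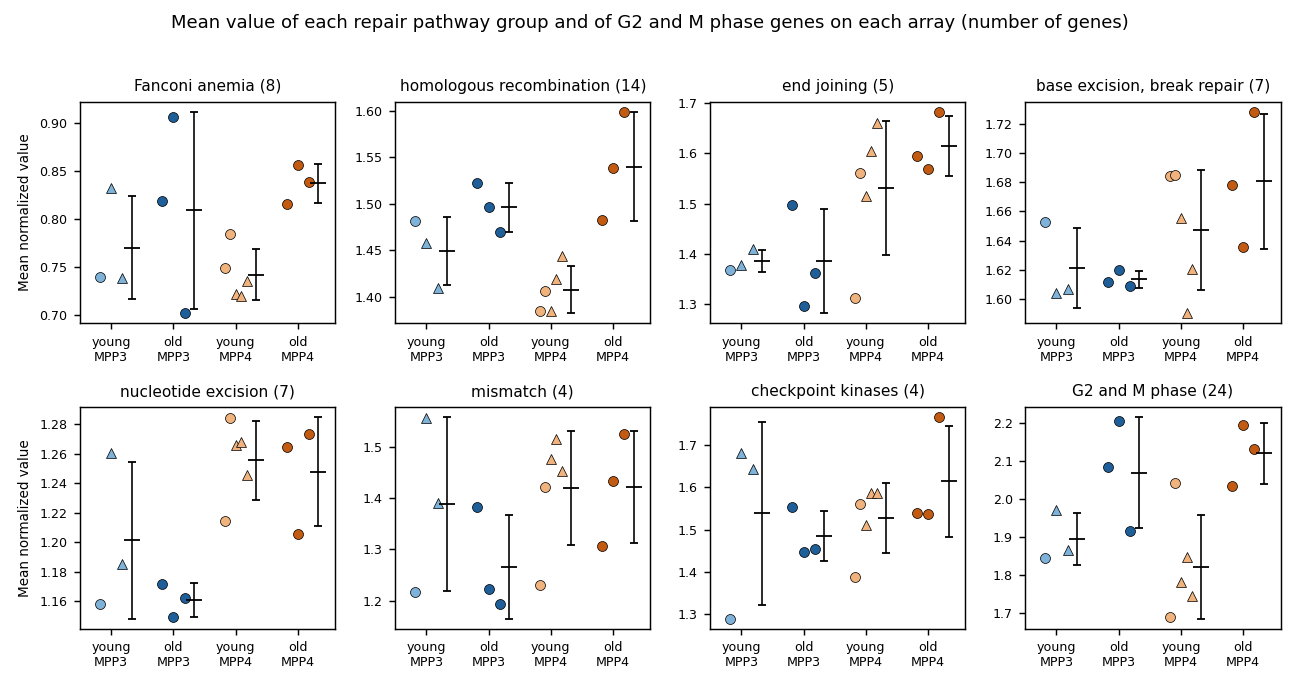
Mean normalized value of the measured genes of each pathway group, and of 24 G2 and M phase genes, on every array. Each point is an array (circles for array set 1, triangles for array set 2), the horizontal mark is the group mean and the bar 1 SD; the number of genes is in parentheses and the axes do not start at 0. The old MPP4 arrays lie above every young MPP4 array for homologous recombination (1.48 to 1.60 against 1.38 to 1.44) and Fanconi anemia genes (0.816 to 0.856 against 0.720 to 0.785).

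In MPP4, most repair genes had a higher mean in old than in young mice, and the median difference was larger among homologous recombination and Fanconi anemia genes than among excision and mismatch repair genes. Of the 49 members, 37 (75.5%) were higher and 12 lower, with a median difference of 0.0694, whereas 49.8% of all genes were higher with a median of -0.000171. At an unadjusted p under 0.05, 8 members (16.3%) were higher, beside 4.5% of all genes, and 1 (2.04%) was lower, beside 5.27%. The 8 were Fanci, Fancc, Wrn, Mre11a, Rad54l, Brca2, Prkdc and Chek1, and the lower one was Xrcc3. The groups did not overlap, with old higher, for 3 members (6.12%) beside 3.28% of all genes, and with old lower for 1 (2.04%) beside 4.01%. The smallest adjusted p of a member was 0.191, for Fanci.

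By pathway, 11 of 14 homologous recombination genes were higher in old MPP4, with a median difference of 0.191. The mean of these genes was 1.41 ± 0.0254 (SD, n = 5) in young and 1.54 ± 0.0583 (SD, n = 3) in old MPP4. Of the Fanconi anemia genes 6 of 8 were higher, with a median of 0.092, and all 5 end joining genes were higher, with a median of 0.0795. The excision groups were closer to 0. The median was 0.0561 in base excision and single-strand break repair, with 6 of 7 higher, and 0.00672 in nucleotide excision repair, with 4 of 7 higher. Mismatch genes were split evenly at a median of 0.0159. Among the 4 checkpoint kinases the median was 0.105, above that of the Fanconi anemia genes. Chek1, Atr and Atm had higher means in old MPP4 and Chek2 a lower one.

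Fanci (probe set 10554281) encodes the partner of FANCD2 in the complex that is clamped onto damaged DNA, and it had the largest moderated statistic of all members. Its value was 0.910, 1.02, 0.916, 1.01 and 0.899 on the young MPP4 arrays and 1.22, 1.20 and 1.17 on the old ones. Every old array lay above every young one, and the old arrays were close together. The difference was 0.249 ± 0.0362 (SE, 95% interval 0.164 to 0.334, limma adjusted p = 0.191), and with array weights it was called at an adjusted p of 0.0428, in a fit that called 1.59% of all genes and 2.04% of the members. In MPP3 the gene spread from 0.847 to 1.25 in young and from 0.828 to 1.23 in old mice, so the young and old MPP3 arrays covered the same range. Fancd2, its partner, had a difference of 0.207 in old MPP4 and 0.176 in old MPP3, neither past the test, with an SD of 0.223 among the young MPP4 arrays and 0.315 among the old MPP3 arrays. Fancc, a subunit of the core complex that attaches ubiquitin to both, was 0.459 ± 0.0738 (SD, n = 5) in young and 0.611 ± 0.108 (SD, n = 3) in old MPP4, and the arrays overlapped.

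Wrn (probe set 10578071) encodes the helicase that is lost in Werner syndrome, a disorder of premature aging. It was at 2.01, 2.02, 1.84, 2.05 and 2.08 in young MPP4 and at 2.18, 2.28 and 2.32 in old MPP4. The groups did not overlap. The difference was 0.265 ± 0.0588 (SE, adjusted p = 0.323). In MPP3 the means were nearly equal, at 2.16 ± 0.146 (SD, n = 3) in young and 2.18 ± 0.101 (SD, n = 3) in old mice. Blm, which encodes a related helicase, differed by 0.229 in MPP4 and 0.182 in MPP3, neither past the test.

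Mre11a, Rad50 and Nbn encode the complex that senses broken ends and starts their resection. Mre11a (probe set 10583264) was at 1.98, 1.91, 1.85, 1.82 and 1.72 in young MPP4 and at 2.18, 2.09 and 1.96 in old MPP4. Old replicate 3 fell just inside the young range and the other old arrays lay above it. The difference was 0.218 ± 0.0689 (SE, adjusted p = 0.431), and it was 0.13 within array set 1. Rad50 differed by 0.196, from 2.90 ± 0.194 (SD, n = 5) to 3.09 ± 0.0282 (SD, n = 3), and Nbn by 0.0219.

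Rad54l (probe set 10515257) encodes a motor protein of homologous recombination that acts on DNA. It was at 1.20, 1.38, 1.24, 1.36 and 1.52 in young MPP4 and at 1.71, 1.41 and 1.67 in old MPP4. Old replicate 2 lay within the young range and the other old arrays above it. The difference was 0.255 ± 0.0918 (SE, adjusted p = 0.463). Brca2, a tumor suppressor gene of the same pathway, was at 1.33, 1.34, 1.25, 1.5 and 1.67 in young and 1.73, 1.62 and 1.61 in old MPP4. Young replicate 5 alone reached into the old range, and the difference was 0.238 ± 0.0944 (SE, adjusted p = 0.489). Brca1 and its partner Bard1 differed by 0.132 and 0.257, with SDs of 0.18 and 0.318 among the young arrays. Xrcc3, also of homologous recombination, went the other way. It was at 1.28, 1.17, 1.26, 1.22 and 1.15 in young MPP4 and at 1.10, 1.08 and 1.11 in old MPP4. All old arrays lay below the young ones, with a difference of -0.122 ± 0.0337 (SE, adjusted p = 0.382).

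Chek1 (CHK1 kinase), which acts downstream of Atr at stalled replication forks, was the checkpoint gene whose MPP4 arrays did not overlap. It was at 1.51, 1.79, 1.69, 1.84 and 1.81 in young and at 1.85, 1.96 and 2.16 in old MPP4. The lowest old array exceeded the highest young one only narrowly. The difference was 0.262 ± 0.0935 (SE, adjusted p = 0.459). Its activator Atr differed by 0.167 and Atm, the kinase that answers breaks, by 0.0421. Chek2, the effector of Atm, differed by -0.122 ± 0.0771 (SE, adjusted p = 0.64).

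**Figure D2:**
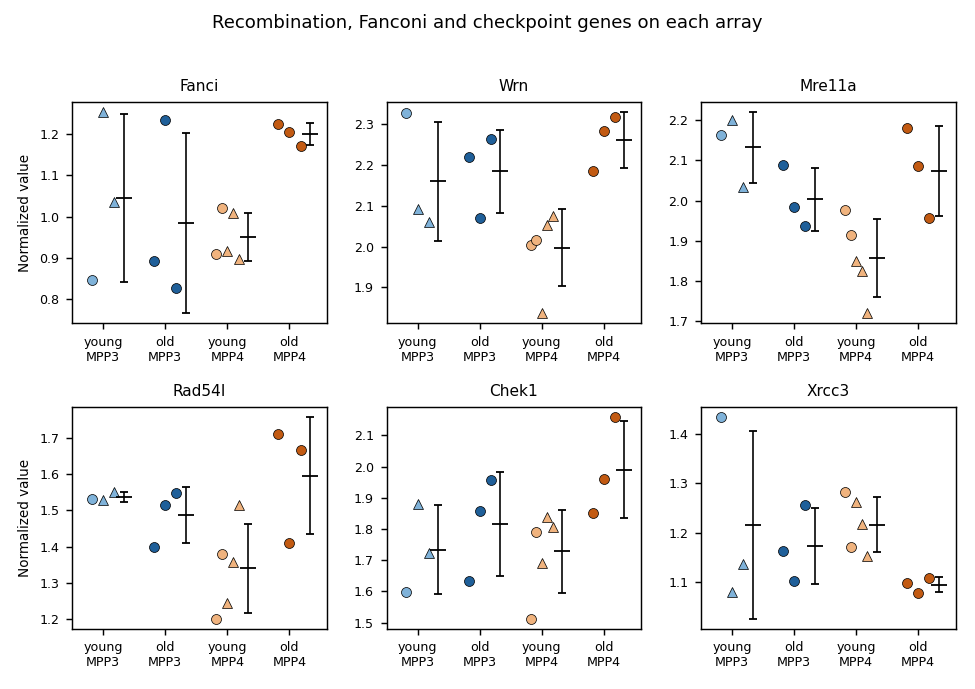
Normalized value of Fanci, Wrn, Mre11a, Rad54l, Chek1 and Xrcc3 on every array. Circles are arrays of set 1 and triangles arrays of set 2, the horizontal mark is the group mean and the bar 1 SD, and the axes do not start at 0. In MPP4 the old arrays lie apart from the young for Fanci, Wrn, Chek1 (higher) and Xrcc3 (lower), while Mre11a and Rad54l overlap.

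Genes of the cell cycle also had higher means in old MPP4. The mean of 24 G2 and M phase genes was 1.82 ± 0.136 (SD, n = 5) in young and 2.12 ± 0.081 (SD, n = 3) in old MPP4, and 23 of the 24 were higher, 14 of them at an unadjusted p under 0.05 and none after adjustment. Young MPP4 replicate 2, at 2.04, overlapped the old arrays at 2.03 to 2.19. Of 29 DNA replication genes 23 were higher, with a median difference of 0.0438. Several members, among them Chek1, Brca2, Rad54l and Fanci, are known to be transcribed most in dividing cells, and the part of the cell cycle in the values above was not tested. In MPP3 21 of 24 G2 and M phase genes were higher in old mice, with a median of 0.199, and 15 of 29 DNA replication genes, with a median of 0.034. The 49 repair genes had a median of -0.00466 there, and the 14 homologous recombination genes one of 0.0615. The part of the cell cycle in the MPP3 values was not tested either.

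Within array set 1, which leaves 2 young and 3 old MPP4 arrays, 35 of the 49 members were higher and the median was 0.081. The differences were 0.234 for Fanci, 0.251 for Wrn, 0.304 for Rad54l, 0.338 for Chek1 and -0.131 for Xrcc3. Brca2 was at 0.32, against 0.238 over all arrays. Smaller differences were left for Fancc (0.0921, against 0.152 over all arrays), Mre11a (0.13, against 0.218) and Prkdc (0.126, against 0.147). The median of the base excision and single-strand break genes was -0.0383 there, against 0.0561 over all arrays. Without old MPP4 replicate 3, the array with the highest member mean, 32 members were higher, the median was 0.0368, and 4 were higher at an unadjusted p under 0.05, beside 3.19% of all genes. Without young MPP4 replicate 3 that last count was 3, beside 3.37% of all genes, and without young MPP4 replicate 2 it was 13, beside 6.6%.

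In MPP3, the 49 members as a set showed no such lean with age. Of these, 24 were higher and 25 lower in old mice. Homologous recombination had 9 of 14 genes higher, with a median difference of 0.0615, and Fanconi anemia 4 of 8, with a median of 0.0171. The array means for recombination overlapped, at 1.41 to 1.48 in young and 1.47 to 1.52 in old MPP3. The median was 0.000433 in end joining. It was negative in base excision and single-strand break repair (-0.0402), nucleotide excision (-0.0442), mismatch repair (-0.107) and checkpoint kinases (-0.0819). At an unadjusted p under 0.05, 2 members (4.08%) were higher, beside 3.44% of all genes, and 0 were lower, beside 4.75%. The groups did not overlap for 2 members that were higher (4.08%, beside 6.14% of all genes) and for 1 that was lower (2.04%, beside 8.04%), both shares below those of all genes. These 3 were Apex1, Ercc2 and Ogg1. The smallest adjusted p was 0.576.

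Apex1 encodes the endonuclease that cuts DNA at sites that have lost their base. It was at 2.56, 2.52 and 2.4 in young MPP3 and at 2.59, 2.78 and 2.67 in old MPP3. The old arrays lay above the young ones, narrowly at the closest pair. The difference was 0.186 ± 0.0652 (SE, adjusted p = 0.576). Ogg1, the glycosylase that removes oxidized guanine one step earlier, was at 1.24, 1.06 and 1.11 in young and 1.01, 1.00 and 1.04 in old MPP3. Here the old arrays lay below the young ones, and the difference was -0.118 ± 0.0523 (SE, adjusted p = 0.636). Ercc2, a helicase of the transcription factor complex that opens DNA around bulky lesions, was 0.577 ± 0.00794 (SD, n = 3) in young and 0.676 ± 0.0511 (SD, n = 3) in old MPP3, and its groups did not overlap either (adjusted p = 0.576). In MPP4 the same 3 genes differed with age by 0.0561, 0.00677 and -0.000659.

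For the other members the young and old MPP3 arrays overlapped. Ercc5, the nuclease that cuts on the 3′ side of a bulky lesion, had a difference of -0.142 ± 0.0678 (SE, adjusted p = 0.656), and Mre11a one of -0.13 ± 0.0632 (SE, adjusted p = 0.659). Msh6, which recognizes mismatched bases, differed by -0.224 ± 0.141 (SE, adjusted p = 0.713). Exo1, the exonuclease that removes the mismatched strand, had the most negative difference of all members at -0.296 ± 0.212 (SE, adjusted p = 0.745), with young arrays at 1.14, 1.80 and 1.49 and old arrays at 1.43, 1.20 and 0.915. Within array set 1, which has a single young MPP3 array, Msh6 and Exo1 turned to 0.0378 and 0.0429. Brca2, whose value was 1.37 ± 0.145 (SD, n = 3) in young and 1.58 ± 0.204 (SD, n = 3) in old MPP3, had the most positive difference, 0.203, and overlapped.

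**Figure D3:**
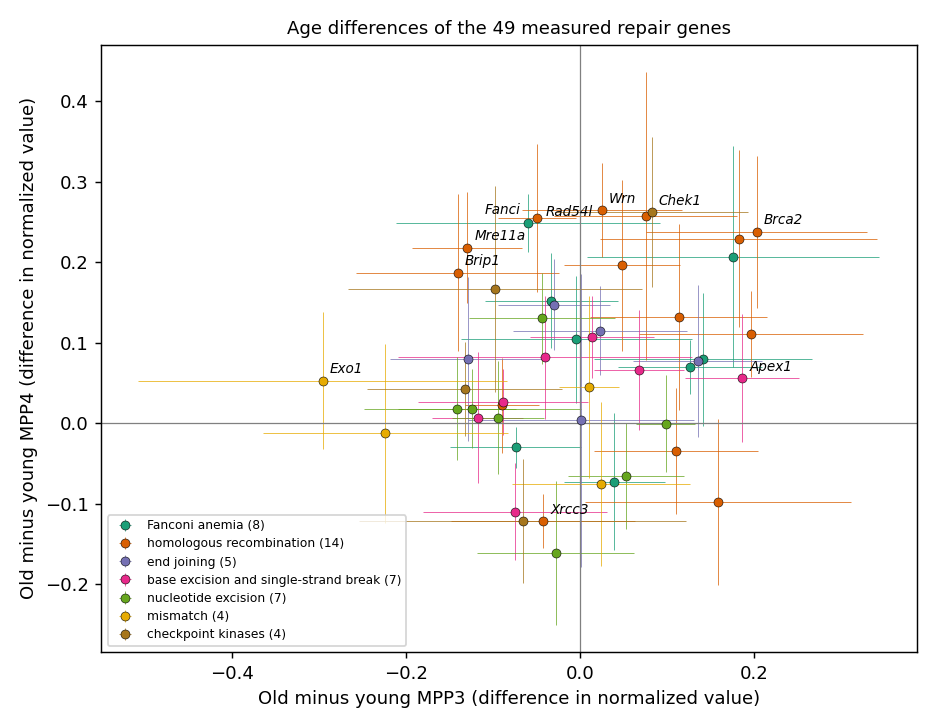
Difference in normalized value between old and young mice in MPP3 (horizontal) and in MPP4 (vertical) for the 49 measured members. Each point is a gene colored by pathway group, with bars of 1 SE, and lines mark 0. Along the vertical axis 37 genes lie above 0, and along the horizontal axis 24 lie to the right of 0.

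The direct test of whether the age difference depended on the population used all 4 groups. The age difference was more positive in MPP4 than in MPP3 for 33 of 49 members, with a median of 0.0935, beside 48.7% of all genes with a median of -0.00194. By pathway group the median was 0.0796 in homologous recombination, below that of all members. The other groups stood at 0.177 (checkpoint kinases), 0.123 (mismatch), 0.101 (nucleotide excision), 0.0935 (base excision and single-strand break), 0.0925 (end joining) and 0.0378 (Fanconi anemia). At an unadjusted p under 0.05, 3 members (6.12%) were more positive in MPP4, beside 3.44% of all genes, and 0 were more negative, beside 2.83%. These 3 genes, all of homologous recombination, were Mre11a at 0.348 ± 0.0998 (SE, adjusted p = 0.667), Rad54l at 0.305 ± 0.117 (SE, adjusted p = 0.755) and Wrn at 0.24 ± 0.109 (SE, adjusted p = 0.793). They were named after their values were seen. None passed the adjusted test, so a dependence on population was not established for any member. Without old MPP3 replicate 3 the median was 0.0451.

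At Mre11a, Rad54l and Wrn young MPP4 had lower means than young MPP3. Wrn overlapped, at 2.33, 2.09 and 2.06 in young MPP3 and 1.84 to 2.08 in young MPP4. Mre11a was at 2.16, 2.20 and 2.03 in young MPP3 and 1.72 to 1.98 in young MPP4, and the populations did not overlap (difference of MPP4 minus MPP3 -0.276 ± 0.0642, SE, adjusted p = 0.194). In old mice the populations did overlap, at 2.09, 1.98 and 1.94 in MPP3 and 2.18, 2.09 and 1.96 in MPP4. Rad54l was at 1.53, 1.53 and 1.55 in young MPP3, above all 5 young MPP4 arrays (-0.197 ± 0.0687, SE, adjusted p = 0.359). In old mice it was at 1.40, 1.51 and 1.55 in MPP3 and 1.41 to 1.71 in MPP4, with overlap. The comparison of the young populations shares the young MPP4 arrays with the age comparison in MPP4, so a low young MPP4 value enters both.

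With array weights 3 members were called between the young populations, Mre11a, Xrcc4 and Xpc, at adjusted p of 0.0284, 0.0437 and 0.0168 (limma). That is 6.12% of the members, beside 9.44% of all genes called in the same fit. Over all members the young populations leaned neither way, with 24 of 49 higher in MPP4 and a median of -0.00237. At an unadjusted p under 0.05, 2 members (4.08%) were higher in young MPP4, beside 5.48% of all genes, and 3 (6.12%) were lower, beside 5.53%. The groups did not overlap for 1 higher member (2.04%, beside 3.74% of all genes) and 2 lower ones (4.08%, beside 3.72%). The higher member was Xpc, which encodes the sensor of helix distortion in nucleotide excision repair. It was at 1.61, 1.52 and 1.42 in young MPP3 and at 1.61, 1.65, 1.94, 1.83 and 1.89 in young MPP4, so replicate 1 of MPP4 barely cleared the MPP3 range. The difference was 0.269 ± 0.0877 (SE, adjusted p = 0.326). The 3 MPP4 arrays with high Xpc are those of set 2, and within array set 1 the difference was 0.0218. In old mice Xpc was at 1.5, 1.34 and 1.63 in MPP3 and 1.75, 1.54 and 1.59 in MPP4.

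In old mice most repair genes had a higher mean in MPP4 than in MPP3, and the end joining group had the largest median difference among the pathway groups. Of the 49 members 39 (79.6%) were higher in old MPP4, with a median of 0.0781, beside 48.3% of all genes with a median of -0.00149. At an unadjusted p under 0.05, 6 members (12.2%) were higher, beside 6.19% of all genes, and 0 were lower, beside 3.64%. The groups did not overlap for 8 members that were higher (16.3%, beside 9.03% of all genes) and for 0 that were lower (beside 7.6%). These were Xrcc4, Xrcc5 and Xrcc6 of end joining, Parp1 and Ogg1 of base excision and single-strand break repair, Xpa and Ercc5 of nucleotide excision repair and Msh6 of mismatch repair. Ogg1 and Ercc5 cleared each other's range only narrowly between the populations. The highest old MPP3 and lowest old MPP4 values were 1.0401 and 1.0408 for Ogg1, and 1.131 and 1.1431 for Ercc5. The smallest adjusted p was 0.27, for Xrcc4. Without old MPP3 replicate 3 the count of higher members was 32 and the median 0.0377. The old MPP4 arrays are the same as in the age comparison.

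End joining was the group with the largest median difference between the populations at both ages, 0.193 in young and 0.292 in old mice, with 3 and 5 of its 5 genes higher in MPP4. Xrcc5 and Xrcc6 encode the subunits of the Ku ring, which slides onto a broken end. Xrcc6 was at 1.74, 1.48 and 1.48 in old MPP3 and at 2.06, 1.87 and 1.97 in old MPP4. Every old MPP4 array exceeded every old MPP3 array, by 0.401 ± 0.0931 (SE, adjusted p = 0.342) in the mean. In young mice it was at 1.68, 1.78 and 1.62 in MPP3 and at 1.64, 2.05, 1.78, 1.99 and 1.99 in MPP4, with overlap (0.193 ± 0.0999, SE, adjusted p = 0.553).

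Xrcc5 was at 1.88, 1.53 and 1.80 in old MPP3 and at 2.03, 2.01 and 2.14 in old MPP4. The populations did not overlap, and the difference was 0.326 ± 0.102 (SE, adjusted p = 0.409). In young MPP4 it spread widely, from 1.52 on replicate 1 and 1.94 on replicate 2 to 2.21, 2.31 and 2.30 on the arrays of set 2. Young MPP3 was at 1.54, 1.79 and 1.87, with its array of set 1 also the lowest. The mean difference in young mice was 0.323, nearly that of old mice.

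Xrcc4, the scaffold that holds DNA ligase IV at the joined ends, was at 1.55, 1.43 and 1.49 in old MPP3 and at 1.72, 1.75 and 1.87 in old MPP4. The groups did not overlap, with a difference of 0.292 ± 0.0545 (SE, 95% interval 0.154 to 0.43, adjusted p = 0.27). In young mice it was at 1.27, 1.29 and 1.5 in MPP3 and at 1.47, 1.65, 1.77, 1.70 and 1.92 in MPP4, where replicate 1 was the array that overlapped (0.35 ± 0.102, SE, adjusted p = 0.273). Lig4, the ligase itself, differed by only 0.0334 in old and -0.0591 in young mice. Prkdc, the kinase recruited by Ku, differed by 0.1 and -0.0772. With age in MPP4, Prkdc had a difference of 0.147 ± 0.0564 (SE, adjusted p = 0.482), against 0.00339 for Xrcc5. The small Xrcc5 difference held only over both array sets together. Its young MPP4 arrays of set 1 (1.52 and 1.94) lay below all old MPP4 arrays (2.01 to 2.14), and those of set 2 (2.21 to 2.31) above them. Within array set 1 the Prkdc difference was 0.126.

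**Figure D4:**
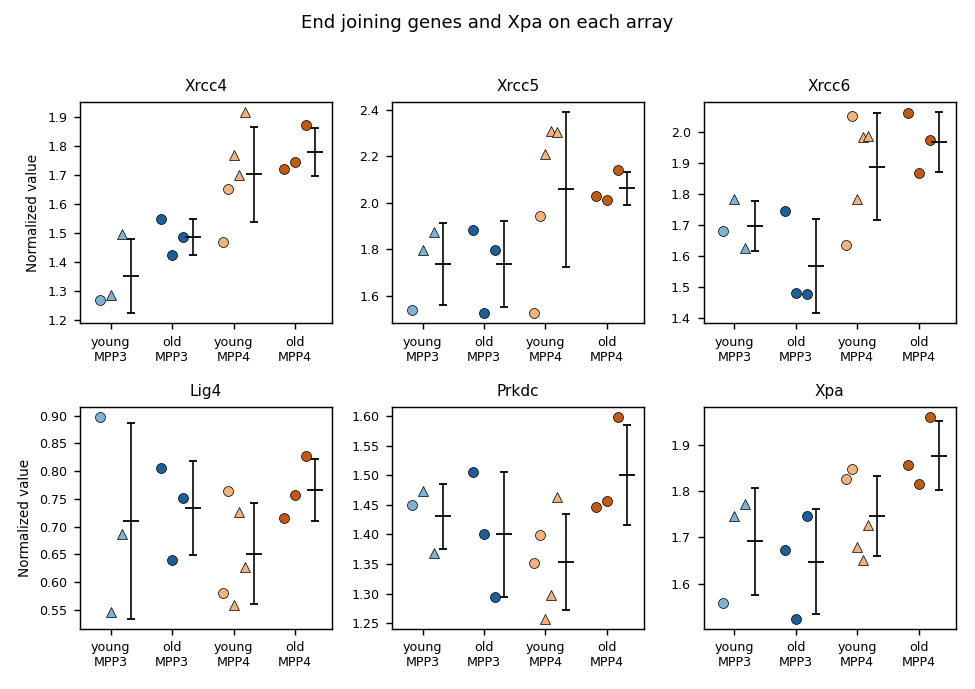
Normalized value of the 5 end joining genes and of Xpa on every array. Circles are arrays of set 1 and triangles arrays of set 2, the horizontal mark is the group mean and the bar 1 SD, and the axes do not start at 0. Xrcc4, Xrcc5, Xrcc6 and Xpa lie apart between old MPP3 and old MPP4, Lig4 and Prkdc do not, and young MPP4 replicate 1 is the lowest young MPP4 array for Xrcc4, Xrcc5 and Xrcc6.

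Young MPP4 replicate 1 stood low for end joining as a group, with a mean of 1.31 while the other 4 young MPP4 arrays lay between 1.52 and 1.66. Without it, the young population difference was 0.256 for Xrcc6 and 0.408 for Xrcc4, neither called. Of the members 9 were then higher at an unadjusted p under 0.05 in place of 2, while the share of all genes went from 5.48% to 7.8%. The neutrophil gene mean also separated old MPP3 (1.34 to 2.02) from old MPP4 (0.493 to 0.752). The mean of 3 B cell genes (Cd79a, Pax5 and Ebf1) was lower in young MPP4 (0.298 to 0.561) than in young MPP3 (0.586 to 0.821), and in old mice it overlapped (0.389 to 0.485 in MPP4, 0.389 to 0.915 in MPP3). The part of either list in the population differences was not tested.

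Of the other pathways in old mice, Xpa, a scaffold of nucleotide excision repair, was at 1.67, 1.52 and 1.75 in MPP3 and 1.86, 1.81 and 1.96 in MPP4. The arrays did not overlap, with a difference of 0.228 ± 0.0701 (SE, adjusted p = 0.405). Parp1, which marks strand breaks with ADP-ribose chains, differed by 0.153 ± 0.065 (SE, adjusted p = 0.544), and Msh6 by 0.25 ± 0.105 (SE, adjusted p = 0.534). Ercc5 and Ogg1, whose arrays were only narrowly apart, differed by 0.115 and 0.0891. All 4 mismatch genes and all 4 checkpoint kinases had higher means in old MPP4 than in old MPP3, with medians of 0.147 and 0.163. Rad52, an annealing factor of recombination, was the member furthest in the other direction at -0.234 ± 0.117 (SE, adjusted p = 0.599).

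Beyond the named members, 60 of 71 other repair genes listed for comparison were measured. In old MPP4 against young MPP4, 36 of these 60 were higher, with a median difference of 0.0294, and at an unadjusted p under 0.05 4 (6.67%) were higher and 1 (1.67%) lower, beside 4.5% and 5.27% of all genes. In MPP3 27 of 60 were higher with age, with a median of -0.0192, and 5 (8.33%) were higher and 2 (3.33%) lower by the same rule, beside 3.44% and 4.75%. Between the populations, 30 of 60 were higher in MPP4 in young mice (median -0.000856) and 34 of 60 in old mice (median 0.0142). None was called after adjustment. The wider set of repair genes thus had smaller medians in old MPP4 than the 49 members, in both the age and the population comparison.

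The promoters of the members were read from RefSeq (GRCm38.p6), from 250 bases before the start of transcription to 50 after it, on the strand of the gene. Of the 49 measured members 41 had such a sequence. Motifs linked to genes of dividing cells were searched on both strands. The CCAAT box (CCAAT, or ATTGG on the other strand) was found in 25 of 41 members (61.0%) and in 42.3% of 17491 protein-coding genes. An E2F site (TTTCGCGC or TTTGGCGC) was found in 2 members (4.88%), Msh3 and Rad51c, and in 1.21% of protein-coding genes. The CHR element (TTTGAA) was found in 2 members (4.88%), Bard1 and Ercc5, and in 18.5% of protein-coding genes. The promoters of Fanci and Chek1 held none of these motifs. Wrn was among the members without such a sequence, so its promoter was not searched. The 3 promoters printed here belong to Xrcc3, Mre11a and Rad54l. These had the smallest p for age in MPP4 (limma) among members with a promoter sequence that held a motif. That each holds a motif was therefore fixed by the choice. Capitals mark CCAAT boxes.
Xrcc3: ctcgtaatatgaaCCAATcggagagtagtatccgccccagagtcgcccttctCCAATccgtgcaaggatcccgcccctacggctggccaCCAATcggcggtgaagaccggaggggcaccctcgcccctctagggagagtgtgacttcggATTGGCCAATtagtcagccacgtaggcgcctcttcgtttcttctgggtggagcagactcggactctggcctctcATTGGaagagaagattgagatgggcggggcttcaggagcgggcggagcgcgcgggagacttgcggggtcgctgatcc
Mre11a: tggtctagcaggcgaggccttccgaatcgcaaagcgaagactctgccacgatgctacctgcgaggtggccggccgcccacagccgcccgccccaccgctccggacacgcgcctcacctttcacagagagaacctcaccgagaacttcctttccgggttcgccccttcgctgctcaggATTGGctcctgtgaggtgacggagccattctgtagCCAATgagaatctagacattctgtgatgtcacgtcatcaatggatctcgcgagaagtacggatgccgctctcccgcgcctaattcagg
Rad54l: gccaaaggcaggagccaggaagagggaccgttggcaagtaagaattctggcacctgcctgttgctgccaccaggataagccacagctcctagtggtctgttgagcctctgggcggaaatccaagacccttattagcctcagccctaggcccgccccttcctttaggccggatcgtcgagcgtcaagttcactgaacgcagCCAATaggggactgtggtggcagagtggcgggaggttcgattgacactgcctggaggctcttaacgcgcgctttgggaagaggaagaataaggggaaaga

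The Xrcc3 window, chr12:111813830-111814129 on the minus strand, held 6 CCAAT boxes. On the strand of the gene they began at -237, -198, -161 and -96 from the start, and on the other strand at -101 and -27, so that the boxes at -101 and -96 adjoin. The Mre11a window, chr9:14784404-14784703 on the plus strand, held one on each strand, beginning at -73 and -38. The Rad54l window printed, chr4:116123641-116123940 on the minus strand, held 1 at -50. It is 1 of 2 windows of this gene that held a motif, and the other is not shown. A match describes the letters only, and no binding was measured.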

How the data were processed

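RNA of 20000 sorted cells per array was amplified with a linear kit and hybridized to Affymetrix Mouse Gene ST 1.0 arrays. The deposited values are a score: the authors applied RMA (version not stated) and then quantile normalization to an exponential reference with lambda of 1. Of the values, 92.3% corresponded to whole ranks of 25307 probe sets within 0.01. They were used as deposited. Precision is limited by how many arrays there are.

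In all 22115 probe sets had values. The 2135 that the platform annotation used here does not list and the 744 with several symbols were left out. Where a gene had several probe sets (76 genes) the one of highest mean was kept, giving 19155 genes. Identifiers were matched to a RefSeq table, in which 71 probe sets had no match.

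Age was compared within MPP3 and within MPP4, and population within young and within old mice, each on the arrays of its 2 groups, with limma 3.58.1 in R 4.3.3 (lmFit, eBayes). All 4 groups entered the fit for the difference between age differences. Tests were two-sided, with Benjamini-Hochberg adjustment over all genes at a threshold of 0.05. Unadjusted p-values are given as counts beside the share of all genes. The fits were tested on simulated data. SAM, which the study used, permutes arrays over other splits and was not run. Figures were drawn with Python 3.11.15.

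The members and all lists were chosen with earlier results of these data known. Named genes were the 2 members with the largest moderated statistic in each pathway group and comparison and any past the threshold. Others were added after their values were seen: Xrcc5 in old mice, the genes of the difference between age differences, members named to complete a complex or a pathway, and those at an unadjusted p under 0.05. Motifs were searched in Python. The other settings were a filter on the dimmest 33.3% of genes, trend and robust estimation, array weights, normal scores of the ranks, the mean of a gene's probe sets, a replicate block, array set 1 alone, 1 fit of all 4 groups and leaving out each array.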

Additional observations from a re-analysis of the deposited data

Results flagged for a closer look

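Among 44 sets of 5 young MPP4 values examined (members named by the rule or at an unadjusted p under 0.05, and means of pathway groups), 3 held an array far from the others, and in all 3 it was young MPP4 replicate 1. Chance sets an array apart in about 1 of 20 such groups. For Xrcc1, the scaffold of single-strand break repair, it stood at 1.58 while the other arrays lay between 1.37 and 1.41. For Ung, the glycosylase that removes uracil, it stood at 0.983 while the others lay between 0.808 and 0.855. For Ercc3, a helicase of nucleotide excision repair, it stood at 1.57 while the others lay between 1.79 and 1.86.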

How the results depend on the processing

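The count of members called changed only with array weights, from 0 to 1 for age in MPP4 (Fanci 0.241, adjusted p = 0.0428, with 1.59% of all genes called) and from 0 to 3 between the young populations (Mre11a -0.284, adjusted p = 0.0284; Xrcc4 0.345, adjusted p = 0.0437; Xpc 0.378, adjusted p = 0.0168), where the same fit called 9.44% of all genes. In every other setting, including each left-out array and 1 fit of all groups, it was 0 in all 5 comparisons. Replicate numbers are shared between groups, but nothing says they mark a shared day, and arrays with the same number had correlations of their deviations of 0.261, -0.0329 and 0.13 for age in MPP4, -0.105, 0.255 and -0.192 for age in MPP3, 0.407, -0.148 and 0.178 between the young populations and 0.0485, 0.00773 and -0.0428 between the old. With the replicate block 0 members were called, and the smallest adjusted p was 0.444, shared by Xrcc6 and Xpa between the old populations. Several settings cannot alter a difference, so a kept direction there was fixed in advance. These were the filter, trend and robust estimation, the mean of probe sets (1 per member) and 1 fit of all 4 groups. The replicate block for age in MPP3, and the block and array set 1 between the old populations, were also of this kind. With such values included, members given with a test kept their direction in 191 of 196 values for age in MPP3. The counts were 267 of 272 for age in MPP4 and 217 of 223 between the young populations. They were 210 of 210 between the old and 63 of 63 for the difference between age differences. For age in MPP3 the exceptions were Fancg -0.0389, Msh6 0.0378, Exo1 0.0429 and Atm 0.0399 within array set 1 and Chek1 -0.0811 with array weights. For age in MPP4 they were Msh3 0.0184 and Exo1 -0.0194 within array set 1, Exo1 -0.0291 with the replicate block, and, over left-out arrays, Msh3 at -0.178 to 0.03 (positive without old replicate 1) and Exo1 at -0.0253 to 0.107 (negative without old replicate 3). Between the young populations they were Ercc3 -0.0287, Exo1 0.276 and Atr 0.125 within array set 1, Chek2 -0.0757 with array weights, and, over left-out arrays, Exo1 at -0.304 to 0.0272 (positive without MPP3 replicate 2) and Chek2 at -0.143 to 0.179 (negative without MPP3 replicate 1). The cause of these changes was not tested. Array set 1 leaves 1 young MPP3 array, which is assumed to vary like the others. Members higher with age in MPP4 numbered 32 to 38 over all settings.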
